A study of Mus musculus with 3 samples.

Results

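A set of 9 genes that pattern connective tissue in the embryo was followed in the scRNA-seq libraries: *Osr1*, *Osr2*, *Twist1*, *Twist2*, *Prrx1*, *Prrx2*, *Tbx15*, *Cxcl14* and *Wnt4*. They were taken by name from the count tables, which list 27755 genes for the E14.5 tail and for the D10 culture and 25936 for D6 paraxial mesoderm (PM), and all 9 are listed in each. They were chosen by their CPM in these libraries, culture against tail and tail cluster code 9 against code 1. Both comparisons are therefore given as descriptions. The tail library came from E14.5 embryos of ScxGFP dams, and no number of embryos is given. The culture and D6 PM came from mouse embryonic stem cells (mESCs) of the ScxGFP reporter background, which had been kept on irradiated mouse embryonic fibroblast feeders, and the line used for each library is not named. Both received 500 nM LDN-193189, a BMP receptor inhibitor, and 5 μM CHIR, a WNT activator, up to D6. The D10 culture then received 10 ng/mL TGFβ1, 100 nM SAG, a hedgehog agonist, and 10 ng/mL FGF2 to induce tendon cells.

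Of the 9 genes, 7 encode transcription factors. *Osr1* and *Osr2* are zinc finger factors of the odd-skipped family, active in the connective tissue cells of the limb and in joints. *Twist1* and *Twist2* are basic helix-loop-helix factors that bind the E-box CANNTG as dimers, often with partners of the TCF3, TCF4 and TCF12 group, and *Twist2* is also known as a gene of the early dermis. *Prrx1* and *Prrx2* are paired-related homeobox factors of limb and craniofacial mesenchyme, and *Tbx15* is a T-box factor that patterns skeleton and skin. *Cxcl14* encodes a secreted chemokine, and *Wnt4* a secreted WNT ligand. Both are made by epithelia as well as by mesenchyme.

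Promoters of 6 of the 9 genes were matched in RefSeq (GRCm38.p6), and 4 are shown. *Twist1* and *Twist2* are paralogs, and *Twist1* was the gene whose profile across tail clusters was most like that of *Twist2*. *Cxcl14* and *Wnt4* were each the gene most like the other. Each sequence is the 250 bases before the start of the gene, 5′ to 3′ on the strand of the gene, and capitals mark matches on either strand to the E-box CANNTG, to the letters CCAAT, or to a TATA box written as TATAAA. The *Twist1* promoter lies at chr12:33957421-33957670 on the plus strand, that of *Twist2* at chr1:91801211-91801460 on the plus strand, that of *Cxcl14* at chr13:56296552-56296801 on the minus strand and that of *Wnt4* at chr4:137277385-137277634 on the plus strand.
Twist1: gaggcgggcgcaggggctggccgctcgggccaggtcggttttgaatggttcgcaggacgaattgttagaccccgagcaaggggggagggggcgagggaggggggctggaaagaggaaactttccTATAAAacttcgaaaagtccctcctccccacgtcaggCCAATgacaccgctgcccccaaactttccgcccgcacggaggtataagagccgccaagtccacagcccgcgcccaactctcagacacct
Twist2: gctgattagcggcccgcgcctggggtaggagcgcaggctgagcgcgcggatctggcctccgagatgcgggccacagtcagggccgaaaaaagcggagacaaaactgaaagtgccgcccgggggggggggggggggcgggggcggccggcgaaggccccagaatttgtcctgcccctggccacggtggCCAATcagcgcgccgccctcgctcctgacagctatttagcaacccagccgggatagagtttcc
Cxcl14: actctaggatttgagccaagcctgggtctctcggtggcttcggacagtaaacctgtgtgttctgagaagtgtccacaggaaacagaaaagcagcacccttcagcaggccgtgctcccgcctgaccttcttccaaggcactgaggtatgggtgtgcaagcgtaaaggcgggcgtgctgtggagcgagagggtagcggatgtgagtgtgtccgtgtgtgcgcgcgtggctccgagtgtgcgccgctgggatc
Wnt4: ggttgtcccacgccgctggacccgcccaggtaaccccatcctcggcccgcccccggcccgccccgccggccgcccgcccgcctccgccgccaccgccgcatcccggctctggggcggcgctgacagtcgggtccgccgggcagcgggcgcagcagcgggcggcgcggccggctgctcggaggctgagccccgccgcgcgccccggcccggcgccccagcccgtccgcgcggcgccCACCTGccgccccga
*Twist1* held TATAAA starting 126 bases and CCAAT starting 89 bases before the start, and *Twist2* held CCAAT 63 bases before it. *Wnt4* held a single CANNTG, 15 bases before its start, and *Cxcl14* held none of these letters in the window. No matches overlapped. Of 27025 promoters of the same length, 66.0% held CANNTG, 34.5% CCAAT and 13% TATAAA. The promoters of *Wnt4* and *Cxcl14* had GC contents of 85.2% and 59.6%, and those of *Twist1* and *Twist2* 62.4% and 68.8%. The promoters of *Prrx1* and *Prrx2* held no match.

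Transcripts were counted as unique molecular identifiers (UMIs). The tail was the deepest library, at a median of 13512 UMIs over 2052 cells. The 7821 culture cells had a median of 5622, and 5954 cells of D6 PM 8171. Each condition was 1 library, so no test between conditions was possible. Levels are in CPM, the UMIs of a gene per 1000000 UMIs of the same cells, summed over a cluster. Intervals in parentheses are exact 95% intervals that cover counting error only. The libraries shared from 3 to 10 cell barcodes per pair. Clusters are the authors' codes, in which culture cells had been assigned to clusters of the tail. By their numbers of cells, codes 3, 5 and 9 match clusters that the paper named fibrocartilage, skin and muscle. Names used here follow the markers instead and differ from the paper's for these codes. Muscle markers summed to 4486 CPM in tail code 5 and 2.88 CPM in tail code 9. By the markers used here, tail code 1 had the highest summed level of 6 connective tissue markers of codes 1, 2 and 4 (9515, 6497 and 1881 CPM). *Scx* did not set it apart, at 1472 CPM in code 1, 1664 CPM in code 2 and 1905 CPM in code 4. Code 2 added *Top2a* of dividing cells (1348 CPM). Code 4 was cartilage-like, with *Col2a1* at 4282 CPM, and codes 3 and 8 were epidermis-like, with *Krt14* at 2687 and 2446 CPM.

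Tail code 9 was a mixture. Of its 157 cells, 34 (21.7%) carried at least 2 UMIs of 5 macrophage markers, *C1qa*, *C1qb*, *Csf1r*, *Ptprc* and *Tyrobp*. Where a gene had 100 or more UMIs in codes 1 and 9 together and reached 50 CPM in either, the largest ratios of code 9 over code 1 were those of genes of macrophages and mast cells, led by *Ms4a6c*, *Cma1* and *C1qa*. In the other 123 cells *Tyrobp* had 0 UMIs, *Col1a1* stood at 4076 CPM, *Dcn* at 2113 CPM and *Lum* at 1451 CPM. *Krt14* stood at 12.3 CPM there. The 6 connective tissue markers summed to 11330.5 CPM in these 123 cells and 8002 CPM in all cells of code 9, against 9515 CPM in code 1. Levels of all 157 cells are given first, and the comparisons of code 9 are repeated without the 34 marked cells, a split made after the data were seen.

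The 9 genes divided into those highest in codes 1 or 2, those highest in code 9 and those highest in epidermis-like cells. The *Osr* genes had the largest share of their UMIs in code 1. *Osr1* stood at 138 CPM (131 to 145) in tail code 1, 69.3 CPM in code 2 and 34.5 CPM in code 9, and was at 3.02 CPM in the cartilage-like code 4. *Osr2* stood at 154 CPM (147 to 162) in code 1, 92.2 CPM in code 2, 36.9 CPM in code 4 and 35.0 CPM in code 9. Code 1 held 74.3% of all *Osr1* UMIs of the tail and 68.2% of those of *Osr2*. Codes 4 and 9 did not differ in *Osr2* beyond counting error, but without the marked cells code 9 was 1.35-fold higher (1.01 to 1.81).

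*Twist1* and *Twist2* were highest in code 9. *Twist1* stood at 1287 CPM (1242 to 1333) in code 9, 795 CPM in code 1, 719 CPM in code 2 and 419.7 CPM in code 4, and every step in this order exceeded counting error. *Twist2* stood at 487 CPM (460 to 516) in code 9 and 169.5 CPM in code 2. It was at 126 CPM in code 7, from 28 UMIs, which did not differ beyond counting error from code 2 or from code 1 at 122 CPM, and at 87.4 CPM in code 4. Code 9 held 7.65% of the tail cells and 33.3% of the *Twist2* UMIs. In the epidermis-like codes 3 and 8, *Twist1* was at 47.5 and 33.8 CPM and *Twist2* at 14.2 and 6.88 CPM.

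*Prrx1* was highest in code 1 instead, at 585 CPM (570.4 to 600.3) in code 1, 489.8 CPM (462 to 518) in code 9, 443 CPM in code 2 and 134 CPM in code 4. *Prrx2* stood at 276 CPM (255 to 297) in code 9, 167 CPM in code 1, 154 CPM in code 2 and 113 CPM in code 4, with codes 1 and 2 within counting error. *Tbx15* had 509 UMIs in the tail, the fewest of the 9. It stood at 27.9 CPM in code 2, 25.8 CPM in code 1 and 21.8 CPM in code 9, which did not differ from each other beyond counting error, and at 11.2 CPM in code 4 and 12 CPM in the muscle cluster, code 5.

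The secreted factors *Cxcl14* and *Wnt4* shared epidermis and code 9. *Cxcl14* stood at 3482 CPM in code 3, 2603 CPM in code 8, 1359 CPM (1313 to 1406) in code 9, 443 CPM in code 1 and 331 CPM in code 2. *Wnt4* stood at 750.3 CPM in code 3, 735 CPM in code 8 and 607 CPM (577 to 639) in code 9, and at 135 CPM or less in every other tail code. Code 1 stood at 59.1 CPM of *Wnt4* and code 4 at 19.7 CPM. The epidermis-like codes were alike in *Wnt4* within counting error (ratio 1.02, 0.936 to 1.11), whereas *Cxcl14* was 1.34-fold higher in code 3 than in code 8. The haemoglobin-rich code 12, which should lack these genes, held each of the 9 at 6.59 CPM or less. Red blood cell markers summed to 383297 CPM there, which leaves less of the total for other genes. In tail code 6 these markers summed to 107944 CPM. That cluster held *Twist1* at 121 CPM, *Prrx1* at 95.6 CPM, *Cxcl14* at 57.2 CPM and *Tbx15* at 0.986 CPM.

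**Figure D1:**
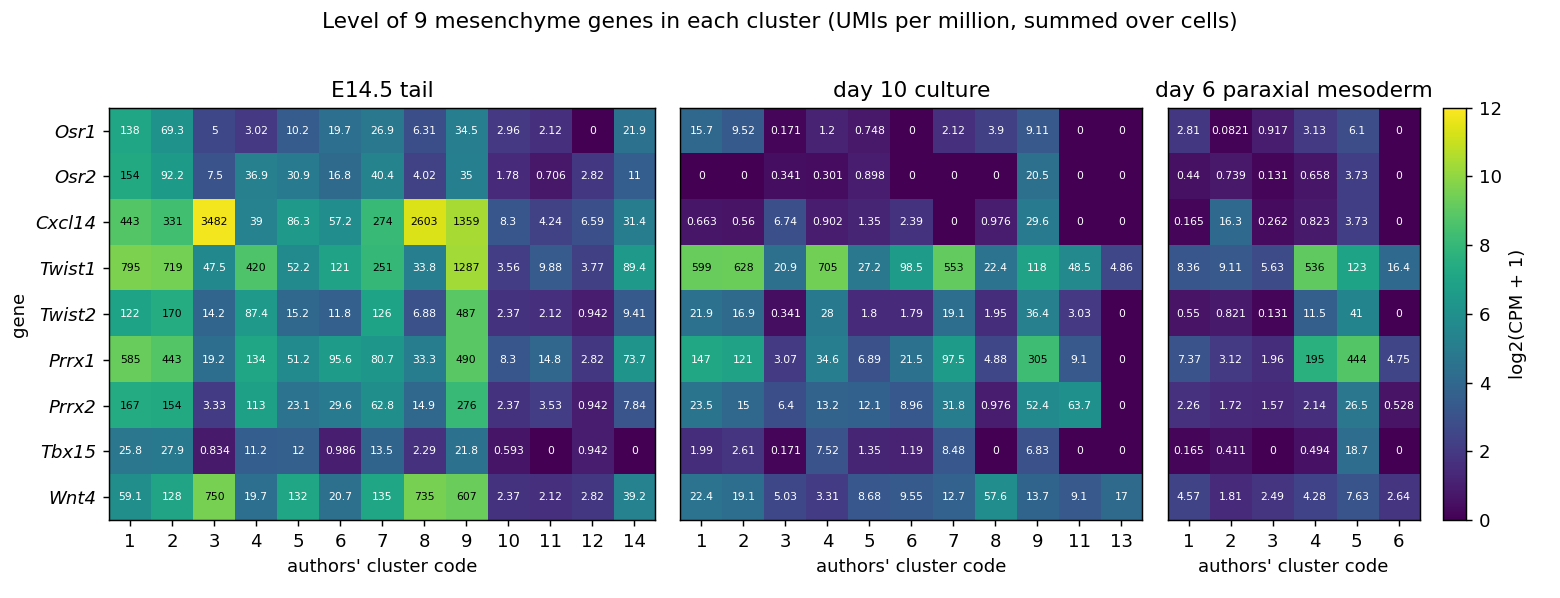
Level of each of the 9 genes (rows) in each of the authors' cluster codes with at least 20 cells (columns), in CPM of UMIs summed over the cells of 1 library, printed in each square and colored as log2(CPM + 1). Codes of the tail and the culture are shared, and those of D6 PM are its own. In the tail, *Osr1* and *Osr2* peak in code 1, *Twist1*, *Twist2* and *Prrx2* in code 9 and *Cxcl14* and *Wnt4* in codes 3 and 8. In the culture, *Twist1* holds 599 to 705 CPM in codes 1, 2 and 4.

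Tail code 9 was then set against tail code 1. All 9 genes passed the filter, a UMI in 10% or more of the cells of code 9 or of code 1. 3 of them were at least 2-fold higher in code 9 and 2 at least 2-fold lower, where 7.85% of the 11091 genes that passed were as much higher and 8.14% as much lower. *Wnt4* was 10.3-fold higher (9.35 to 11.3), *Twist2* 4.0-fold higher (3.69 to 4.34) and *Cxcl14* 3.07-fold higher (2.93 to 3.21). *Osr1* stood at 0.251 of its level in code 1 (0.199 to 0.313) and *Osr2* at 0.227 (0.180 to 0.282). *Prrx2* (1.65-fold) and *Twist1* (1.62-fold) were higher by less than 2-fold, *Prrx1* was at 0.837 (0.786 to 0.891) and *Tbx15* at 0.845 (0.617 to 1.14), an interval that includes 1. The *Osr* genes therefore moved alike, whereas the *Twist* genes were both higher but by different amounts. *Prrx1* and *Prrx2* lay on opposite sides of 1 over all cells of code 9, but not without the marked cells.

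Without cells that carried at least 2 macrophage UMIs, the levels of all 9 genes in code 9 were higher. *Twist1* stood at 1823 CPM, *Cxcl14* at 1955 CPM, *Wnt4* at 827 CPM, *Prrx1* at 695 CPM, *Twist2* at 689.6 CPM and *Prrx2* at 384 CPM. The ratio to code 1 became 14.0 for *Wnt4*, 5.70 for *Twist2*, 4.41 for *Cxcl14*, 2.30 for *Twist1* and 2.29 for *Prrx2*, so that 5 genes were at least 2-fold higher against 3.96% of all genes. *Prrx1* crossed to the other side, at 1.19-fold (1.11 to 1.26), and *Tbx15* was at 1.23-fold (0.893 to 1.67). *Osr1* and *Osr2* stayed lower, at 0.358 and 0.323 of code 1. In the 34 cells themselves *Twist1* stood at 208 CPM, *Wnt4* at 166 CPM and *Osr1* at 4.95 CPM.

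**Figure D2:**
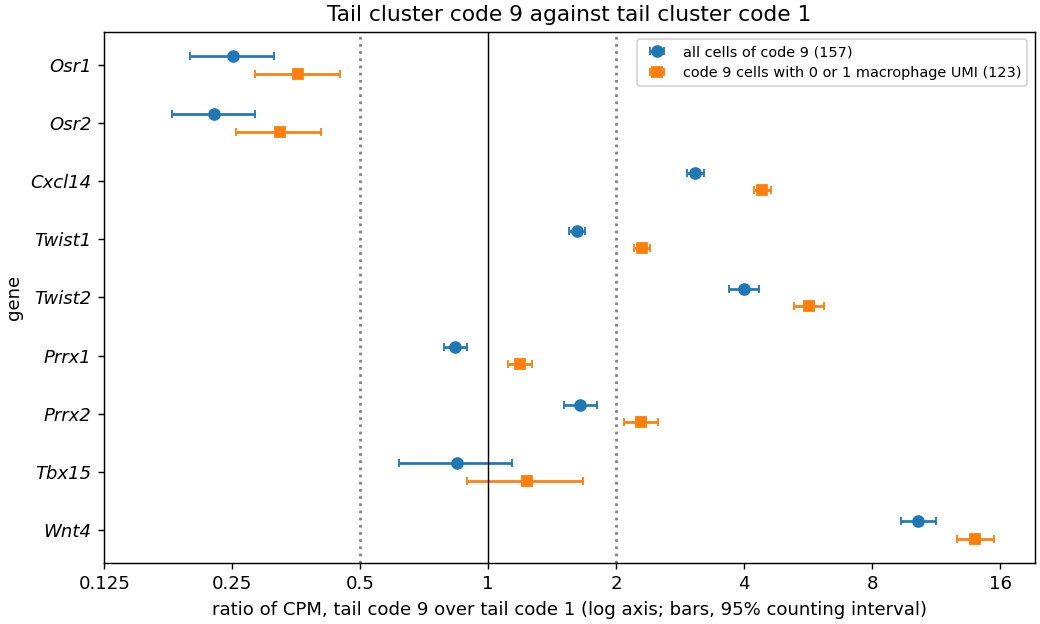
Ratio of CPM of tail code 9 over tail code 1 for each of the 9 genes, on a log axis, with exact 95% counting intervals; circles use all 157 cells of code 9 and squares the 123 cells with fewer than 2 macrophage UMIs. Dotted lines mark 2-fold. *Wnt4*, *Twist2* and *Cxcl14* lie beyond 2-fold on the higher side and *Osr1* and *Osr2* on the lower side in both sets of cells, and the squares of *Twist1* and *Prrx2* pass 2-fold.

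*Cxcl14* and *Wnt4* in code 9 were set beside 6 epidermal markers. Against the epidermis-like code 8, code 9 held *Wnt4* at 0.826 (0.766 to 0.891) and *Cxcl14* at 0.522 (0.499 to 0.546) of the level. Its *Twist1* was 38.0-fold higher (29.4 to 50.1), its *Twist2* 70.8-fold (40.4 to 137), its *Prrx2* 18.5-fold and its *Prrx1* 14.7-fold. Without the marked cells *Wnt4* turned to 1.12-fold of code 8 (1.04 to 1.21) and *Cxcl14* stood at 0.751 (0.718 to 0.786). The summed level of 6 epidermal markers was 39.5 CPM in code 9, 35.1 CPM in its unmarked cells, 23.2 CPM in code 1 and 7049 CPM in code 8.

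Cells were then thinned at random to 3000 UMIs each to compare detection at 1 depth, which left 152 cells of tail code 9, 678 of code 1 and 2595 of culture code 1. *Twist1* was found in 82.2% of code 9 cells, *Cxcl14* in 79.6%, *Twist2* in 67.1% and *Wnt4* in 63.8%. The shares in code 1 were 71.4%, 36.1%, 22.7% and 7.96%. *Prrx1* was found in 61.8% of code 9 cells and 70.8% of code 1 cells, *Osr1* in 4.61% and 26.8%, and *Osr2* in 7.89% and 25.8%. In the haemoglobin-rich code 12, whose median before thinning was 8392 UMIs against 13772 in code 9 and 13463 in code 1, no gene of the 9 was found in more than 4.0% of 125 cells. That highest share was of *Cxcl14*, while *Osr1* was found in 0 and *Tbx15* in 1 of these cells. Both stood at 4.61% (1.87 to 9.26) in code 9. In code 6, also rich in red blood cell markers, the highest share was of *Twist1*, at 13.2% of 68 cells. In the 121 unmarked cells of code 9, *Twist1* was found in 98.3%, *Cxcl14* in 95.9%, *Twist2* in 82.6%, *Wnt4* in 76.9% and *Prrx1* in 73.6%. Before thinning, *Twist2* was found in 83.4% of code 9 cells and 48.6% of code 1 cells, and *Wnt4* in 77.1% and 19%.

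The median code 9 cell held 5 of the 9 genes and the median code 1 cell 3. At least 4 were found in 75.0% of code 9 cells, 36% of code 1 cells, 2.50% of cartilage-like cells and 0.809% of cells of culture code 1. The remaining code 9 cells split sharply. All 23 that held none of the 9 genes were among the 31 with at least 2 macrophage UMIs. Of the 121 other cells none lacked all 9 genes, and 111 (91.7%) held at least 4. Within single cells of code 9, 11 of 36 pairs of genes were found together more often than the product of their shares, with intervals above that product, and none less often. *Cxcl14* and *Twist1* were found together in 78.3% of cells (70.9 to 84.6) against a product of 65.5%, and *Twist2* and *Wnt4* in 51.3% against 42.8%. These pairs were counted over marked and unmarked cells together. In the 121 unmarked cells none of the 36 pairs was above or below the product, with *Twist2* and *Wnt4* together in 64.5% of cells (55.2 to 73.0) against a product of 63.5%. In code 1 the pairs above the product numbered 7, of which 5 included *Cxcl14*. *Cxcl14* and *Twist2* were found together in 13% of code 1 cells (10.5 to 15.7) against a product of 8.21%.

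**Figure D3:**
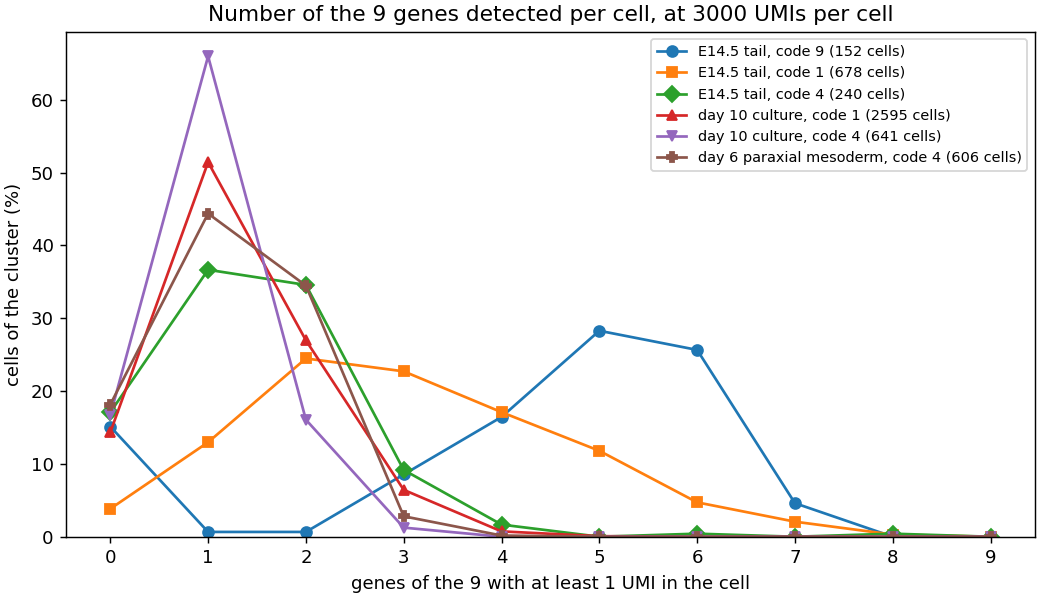
Share of the cells of a cluster, in %, that held a given number of the 9 genes with at least 1 UMI, with every cell thinned to 3000 UMIs; each line is 1 cluster of 1 library. Tail code 9 has 1 group of cells with none of the genes (15.1%) and another around 5 genes, whereas culture codes 1 and 4 and D6 PM code 4 center on 1 gene.

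Within tail code 1, the 240 cells that kept a UMI of *Scx*, the tendon transcription factor, after thinning held less of 8 of the 9 genes than the 438 cells that kept none. *Wnt4* stood at 0.149 (0.0626 to 0.305), *Osr2* at 0.288 (0.202 to 0.401), *Osr1* at 0.357 (0.253 to 0.493) and *Cxcl14* at 0.445 (0.377 to 0.524) of the level without *Scx*. *Twist1* stood at 0.610, *Prrx2* at 0.613, *Twist2* at 0.710 and *Prrx1* at 0.739, each with an interval below 1, and *Tbx15* at 0.803 (0.357 to 1.69). In culture code 1, where 2368 cells kept an *Scx* UMI and 227 did not, *Osr1* was at 0.217 (0.152 to 0.316), *Wnt4* at 0.525 and *Twist1* at 0.798. The intervals of *Prrx1* (0.871 to 1.33), *Twist2*, *Tbx15* and *Cxcl14* included 1, as did that of *Prrx2*, at 1.75 (0.932 to 3.72). *Osr2* had no UMIs there. In the cartilage-like tail code 4, *Prrx2* was lower with *Scx*, as in tail code 1, at 0.577 (0.350 to 0.948). *Twist1* was instead 1.47-fold higher with *Scx* (1.14 to 1.90), and *Osr2* was at 16 UMIs in 149 cells with *Scx* and 1 UMI in 91 without.

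The culture was next compared with the tail in codes 1, 2, 4 and 9, which both libraries hold. In code 1, 8 of the 9 genes were at least 2-fold lower in the culture and none was higher, where 13.6% of 10418 genes were as much lower and 5.76% as much higher. Of these 8, *Osr1*, *Osr2*, *Cxcl14*, *Tbx15* and *Wnt4* passed the filter through the tail alone, so the count is a description only. With no filter it was also 8. *Osr2* had 0 UMIs in 2964 culture cells, where 3 UMIs would be 0.181 CPM, against 1560 UMIs in 685 tail cells, and was at least 852-fold lower. *Cxcl14* stood at 0.663 CPM, from 11 UMIs, against 443 CPM, a ratio of 0.0015 (0.000747 to 0.00268). *Tbx15* stood at 1.99 CPM against 25.8, *Osr1* at 15.7 against 138, *Prrx2* at 23.5 against 167 and *Twist2* at 21.9 against 122. *Prrx1* was at 147 against 585 CPM and *Wnt4* at 22.4 against 59.1 CPM. *Twist1* alone stayed within 2-fold, at 599 against 795 CPM (ratio 0.753, 0.731 to 0.775). *Scx* itself stood at 2410 CPM in the culture and 1472 CPM in the tail. The median log2 ratio of all genes was -0.21 in code 1, -0.18 in code 2, -0.18 in code 4 and -0.39 in code 9. Relative to that median *Twist1* stood at a log2 ratio of -0.20 in code 1, -0.01 in code 2, 0.93 in code 4 and -3.06 in code 9.

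Code 2, of dividing cells, gave the same division. In total 8 genes were at least 2-fold lower in the culture, against 13.6% of all genes lower and 5.5% higher. Here *Prrx2* and the genes so named for code 1 passed the filter through the tail alone. *Osr2* had 0 UMIs in 1353 culture cells and was at least 329-fold lower, *Cxcl14* was at 0.00169 of its tail level (0.000621 to 0.0037) from 6 culture UMIs, and *Twist2* was 10.0-fold, *Prrx2* 10.2-fold and *Tbx15* 10.7-fold lower. *Twist1* stood at 628 CPM against 719 (ratio 0.874, 0.838 to 0.912). *Osr1* kept 9.52 to 15.7 CPM in culture codes 1 and 2, where *Osr2* was not detected in either.

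In code 4, cartilage-like in the tail, where 7 of the 9 genes passed the filter, 5 were at least 2-fold lower in the culture (13% of all genes lower, 4.86% higher). All of these 5 passed the filter through the tail alone, so the count is a description only. With no filter 7 of the 9 were at least 2-fold lower, with *Osr1* (4 culture UMIs) and *Wnt4* (11 culture UMIs) added. *Osr2* had 1 UMI in 855 culture cells and 122 in 241 tail cells, and *Cxcl14* 3 and 129 UMIs. *Prrx2* was 8.52-fold, *Prrx1* 3.88-fold and *Twist2* 3.12-fold lower. *Twist1* was higher in the culture, at 705 CPM against 419.7 CPM (1.68-fold, 1.57 to 1.80). The cells of code 4 also differed in markers between the libraries. Connective tissue markers summed to 4527 CPM in the culture and 1881 CPM in the tail, tendon markers to 2761 and 2064 CPM and cartilage markers to 4194 and 8461 CPM, and their part in the *Twist1* level was not tested. *Tbx15* stood at 7.52 against 11.2 CPM, within counting error. Among culture clusters, code 4 held *Prrx1* at 0.236 (0.194 to 0.285) and *Osr1* at 0.0765 (0.0207 to 0.198) of the level of code 1, while *Tbx15* was 3.78-fold higher (2.15 to 6.55) and *Twist1* 1.18-fold.

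Code 9 was rare in the culture, with 53 cells, of which 4 carried macrophage UMIs. Here 7 of the 9 genes were at least 2-fold lower than in tail code 9, against 28.5% of all genes lower and 12.4% higher. Of these 7, *Osr1*, *Tbx15* and *Wnt4* passed the filter through the tail alone. *Cxcl14* stood at 29.6 CPM against 1359, *Wnt4* at 13.7 against 607 and *Twist2* at 36.4 against 487. *Twist1* was 10.9-fold lower, at 118 against 1287 CPM, so that the gene best kept in codes 1, 2 and 4 was among the lower ones here. The low ratios of *Osr1* (0.264) and *Tbx15* (0.314) rested on 4 and 3 culture UMIs. *Prrx1* was at 305 CPM against 489.8 (ratio 0.623, 0.517 to 0.746). With the marked cells left out of both libraries, all 9 genes were at least 2-fold lower in the 49 culture cells, against 28.6% of all genes lower and 15.3% higher. There *Osr1*, *Osr2*, *Cxcl14*, *Tbx15* and *Wnt4* passed the filter through the tail alone. *Prrx1* was then at 0.483 (0.401 to 0.579) and *Osr2* at 0.452 (0.200 to 0.902). *Cxcl14* was at 0.0077 (0.00282 to 0.0168), against 0.0218 over all cells, and 6 of its 13 culture UMIs lay in unmarked cells. Culture code 9 held 439035 UMIs against 2431788 in tail code 9. In simulated counts of these depths counting error alone took more genes past 2-fold than in the other comparisons. The shares of 28.5% lower and 12.4% higher over all cells can include such genes, and how many in each direction was not tested. No counts were simulated for the unmarked cells. Over all cells *Osr2* was at 20.5 CPM, from 9 UMIs in 2 of the 53 cells, against 35.0 CPM (0.586, 0.259 to 1.17). Those 9 UMIs were among 20 *Osr2* UMIs in the whole culture. Within the culture, code 9 held *Prrx1* 2.08-fold above code 1 (1.74 to 2.48), *Cxcl14* 44.7-fold above it (18.5 to 110.1; 22.7-fold from 6 UMIs without the marked cells) and *Twist1* at 0.198 of it (0.148 to 0.260). The summed level of 6 tendon markers was 551 CPM in culture code 9 and 121 CPM in tail code 9. Without the marked cells it was 604 and 61.0 CPM, and 195 of the 294 tendon marker UMIs of tail code 9 lay in the marked cells.

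**Figure D4:**
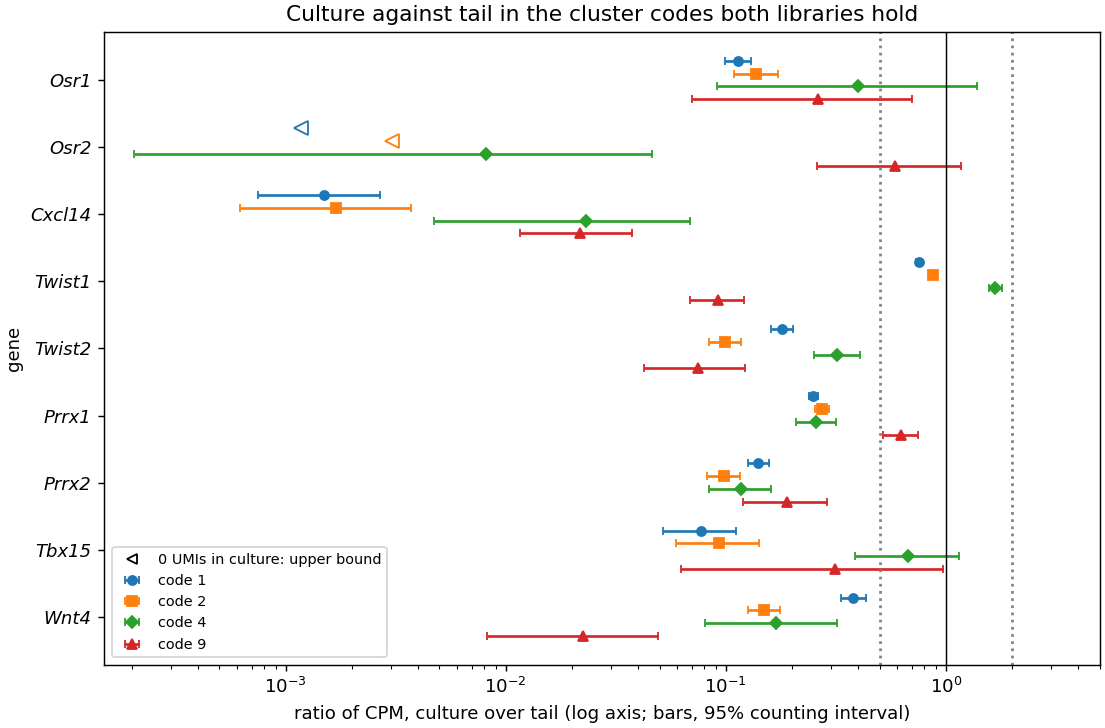
Ratio of CPM of the culture over the tail for each of the 9 genes in codes 1, 2, 4 and 9, on a log axis, with exact 95% counting intervals; open triangles are upper bounds for *Osr2*, which had 0 UMIs in culture codes 1 and 2. Dotted lines mark 2-fold. *Twist1* is the one gene with a ratio above 1, in code 4, and *Osr2* and *Cxcl14* lie farthest to the left in codes 1, 2 and 4.

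The share of each paralog within its pair gave a measure that does not depend on the total of a cluster. *Twist2* made up 13.3% of *Twist* UMIs in tail code 1 and 27.5% in tail code 9, and 3.54% (3.19 to 3.91) in culture code 1 and 2.62% in culture code 2. In culture code 9 it was 23.5% (14.1 to 35.4), from 16 of 68 UMIs. In tail code 9 the *Twist2* share did not differ beyond counting error between cells with macrophage UMIs (27.9%, 22.2 to 34.1) and those without (27.4%, 26.1 to 28.8). *Prrx2* made up 22.2% of *Prrx* UMIs in tail code 1, 36% in code 9, 45.7% in code 4 and 13.8% in culture code 1. In culture code 4 it was 27.7% (20.9 to 35.3). *Osr2* made up 52.8% of *Osr* UMIs in tail code 1, 50.3% in code 9 and 92.4% in the cartilage-like code 4. In culture code 1 it was 0 of 261 UMIs, which allows up to 1.40%. Shares are of UMIs captured at the 3′ end and not of transcripts corrected for capture.

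**Figure D5:**
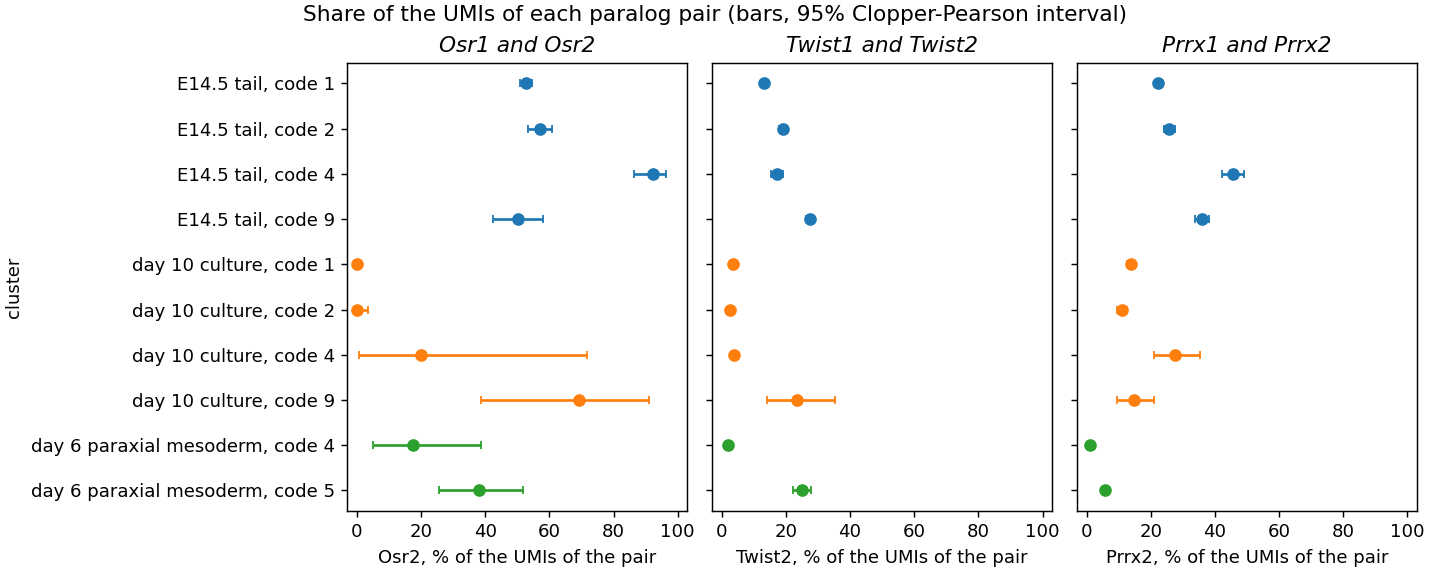
Share of *Osr2*, *Twist2* and *Prrx2*, in % of the UMIs of each paralog pair, in 10 clusters of the 3 libraries; points are shares and bars exact 95% Clopper-Pearson intervals. *Twist2* shares of the tail (13.3% to 27.5%) lie above those of culture codes 1, 2 and 4, and *Osr2* reaches 92.4% in tail code 4.

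D6 PM, the stage before tenogenic induction, already held *Twist1* and *Prrx1*. In D6 PM code 4, *Twist1* stood at 536 CPM (518 to 555) and *Prrx1* at 195 CPM, and in culture code 1 they stood at 599 and 147 CPM. The other genes were low in D6 PM code 4. *Prrx2* stood at 2.14 CPM there and was 11-fold higher in culture code 1, and *Osr1* stood at 3.13 CPM and *Wnt4* at 4.28 CPM, 5.03-fold and 5.24-fold below culture code 1. *Cxcl14* (0.823 CPM) and *Osr2* (0.658 CPM, from 4 UMIs) were near the limit of detection in D6 PM code 4 as in culture code 1. A second D6 cluster, code 5, had the reverse balance, with *Prrx1* at 444 CPM, *Twist1* at 123 CPM, *Twist2* at 41.0 CPM, *Prrx2* at 26.5 CPM and *Tbx15* at 18.7 CPM. In it *Twist2* made up 25.1% of *Twist* UMIs, against 2.10% in code 4. Culture code 9 stood close to it in the *Twist* genes, with *Twist1* at 0.966 (0.715 to 1.28) and *Twist2* at 0.888 (0.50 to 1.47) of D6 PM code 5, although *Cxcl14* was 7.94-fold higher (3.67 to 16.5), or 4.03-fold without the marked cells. *Prrx2* was 1.98-fold higher (1.22 to 3.08) than in D6 PM code 5, *Osr2* was 5.50-fold higher from 9 UMIs in 2 cells, and *Prrx1* was at 0.687 (0.573 to 0.818). *Cxcl14* in D6 PM was highest in the pluripotency-like code 2, at 16.3 CPM.

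Other genes of the same families were set beside the 9, against the 7.85% of all genes higher and 8.14% lower in tail code 9 than in code 1 (3.96% and 7.3% without the marked cells). A gene could pass the filter through 1 group alone, so these counts are descriptions only. *Ebf2*, for example, was found in 3.18% of code 9 cells and 42.6% of code 1 cells. Of 7 T-box genes that passed the filter, *Tbx15* among them, 4 were at least 2-fold lower in tail code 9 than in code 1 (*Tbx2*, *Tbx3*, *Tbx4* and *Tbx5*, at 0.0264 to 0.177 of the level) and none was higher. Their median log2 ratio was -2.50, against -0.06 for all genes tested (-2.03 against -0.04 without the marked cells). Of 33 other transcription factors of mesenchyme, 17 were lower and 6 higher, with a median log2 ratio of -1.65. The higher ones were *Irx3* (6.95-fold), *Runx1* (6.20-fold), *Irx5* (4.91-fold), *Zeb2* (3.73-fold), *Lef1* (3.06-fold) and *Runx2* (2.66-fold), and *Ebf2* and *Foxc1* were among the lower. Without the macrophage-marked cells 18 of these factors were lower and 7 higher, with a median log2 ratio of -1.21. *Irx3* was then 9.91-fold and *Runx1* 5.22-fold higher. Among TWIST partners and inhibitors, *Tcf4* was 1.79-fold and *Tcf12* 1.54-fold higher in code 9 (2.41-fold and 2.01-fold without the marked cells), and *Id4* was at 0.252. Of 22 dermal and fascial genes 5 were higher, namely *Apcdd1* (7.25-fold), *Axin2* (2.95-fold) and *Nkd1* (2.89-fold), which are feedback genes of WNT signaling, and *Col23a1* and *Lrig1*, and 6 were lower, including *Dkk2* and *Sfrp2*. Without the marked cells 8 of these 22 were higher, the added ones being *Lum*, *Crabp1* and *Fbln1*. *Wnt4* was the one WNT ligand of 7 to be at least 2-fold higher, and *Wnt5b* (0.382) was lower. *Cxcl12*, the other chemokine that passed, was at 0.504.

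In the culture against the tail in code 1, 13.6% of all genes were lower and 5.76% higher, and the families differed in their counts. Some of their genes, such as *Tbx4* and *Wnt2*, passed the filter through the tail alone, so these counts too are descriptions only. Of 7 T-box genes 5 were at least 2-fold lower, with *Tbx4* at 0 UMIs in the culture, while *Tbx2* was level (1.03, 0.893 to 1.19). Of 35 mesenchyme factors 19 were lower, among them *Irx3*, *Irx5*, *Shox2* and *En1*, and 5 were higher, namely *Foxc1* (6.71-fold), *Foxc2* (5.0-fold), *Runx1* (4.01-fold), *Meox1* (3.0-fold) and *Dlx5* (2.26-fold). Of 6 WNT ligands 5 were lower, with *Wnt2* at 1 UMI in the culture against 396 in the tail. *Wnt4* (0.380) and *Wnt5b* (0.371) were the least reduced of these 5. Of 7 TWIST partners and inhibitors 2 were lower, *Id1* and *Id4*, and of 21 dermal and fascial genes 9 were lower and 2 higher. The chemokine *Cxcl12* stood at 0.721 (0.678 to 0.768) of its tail level.

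Across the 13 tail clusters, the genes whose log2(CPM + 1) most resembled each of the 9 were found among 11344 genes with at least 200 UMIs in the tail. *Wnt4* and *Cxcl14* were each the other's closest gene (Pearson r = 0.96), and *Twist1* was the closest to *Twist2* (r = 0.96). The genes closest to *Twist1* and *Prrx1* were *Creb3l1* (r = 0.97) and *Gxylt2* (r = 0.97), with *Col1a2* the second for *Prrx1*. *Prrx2* was closest to *Ddr2* (r = 0.96), a collagen receptor, *Osr2* to *Lgals1* (r = 0.92), *Osr1* to *Egfl6* (r = 0.90) and *Tbx15* to *Apela* (r = 0.93). Within the 9 genes, *Cxcl14* and *Wnt4* correlated at 0.45 to 0.57 with the 7 transcription factors, whereas *Twist1* and *Prrx1* were at 0.97. These points share a library and differ in depth, and they serve as a description.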

How the data were processed

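Single-cell suspensions of the E14.5 tail, the D10 culture and D6 PM were profiled with the 10x Genomics 3′ v3 kit, 1 library each. The authors deposited raw counts of UMIs, made with cellranger 3.1.0 without reads that map to several places. The authors removed cells with over 7.5% mitochondrial transcripts and the lowest and highest 2% by transcripts, and put their cluster code of each cell in the first row. Codes of culture and tail came from integration with Seurat 3.0, those of D6 PM from a separate clustering. The genome build of these counts is not given in the sources used here. Total UMIs were 53403944 in the culture, 31343741 in the tail and 51858825 in D6 PM.

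Python 3.11.15 (SciPy 1.17.1, NumPy 2.4.6) was used to sum UMIs over each cluster of a library. Levels have exact Poisson, ratios conditional binomial and shares Clopper-Pearson intervals, at 95%, for counting error only. Cells are not replicates, so no p-values were computed. The filter kept genes found in 10% or more of the cells of 1 of the 2 groups, and a call was a difference of 2-fold. A group at 0 UMIs was set at a floor of 3 counts. Cells were thinned to 3000 UMIs, which left out 1157 culture, 100 tail and 1006 D6 PM cells. Scrublet (Scanpy 1.11.5, expected rate 6%) called 137, 9 and 98 cells as doublets. These cells were kept. Levels are given for codes with at least 20 cells. Codes 10, 12 and 14 of the culture had fewer and have no value.

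The 9 genes, the related gene lists and the markers were chosen with earlier results of these data known. Genes outside the 9 are named as members of those lists, as the 3 genes most alike each of the 9, or as the 10 with the largest ratios of tail code 9 over code 1 in either direction, and not all are printed. The counting scripts were tested on simulated data. Alternatives used other cells, another CPM, no filter, another fold or another thinning depth. The bulk RNA-seq of the study was not analysed here.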

Additional observations from a re-analysis of the deposited data

Results flagged for a closer look

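*Twist1* differed in direction between clusters when the culture was compared with the tail. The ratio of culture over tail was 1.68 in code 4, above 1, and 0.753 in code 1, 0.874 in code 2 and 0.0921 in code 9, below 1. Each interval excluded 1 for counting error, but relative to the median of all genes the log2 ratio in code 2 was -0.01, level with other genes. In code 4 connective tissue markers summed to 4527 CPM in the culture and 1881 CPM in the tail, and cartilage markers to 4194 and 8461 CPM. The difference between clusters was not tested, since each library is a single sample. In code 4 the culture cells had a median of 3696 UMIs and the tail cells 13136, and in code 1 4919 and 13463. With every cell thinned to 3000 UMIs the log2 ratios were 0.78 in code 4, -0.34 in code 1, -0.12 in code 2 and -3.11 in code 9, with the same signs.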

How the results depend on the processing

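Each member's ratio in the 5 comparisons was recomputed under 7 settings that can change it, of which the omission of cells with at least 2 macrophage UMIs was chosen after seeing the data. Of 314 recomputed ratios, 260 stayed inside the counting interval of the reported value, 52 moved outside it and 2 were counted as reversed. Of the 52, 22 were in tail code 9 against tail code 1. The culture against the tail had 14 in code 1, 6 in code 2, 2 in code 4 and 8 in code 9. With cells thinned to 3000 UMIs, only 22 of 44 stayed inside. Both counted reversals were of *Osr1* with cells thinned to 3000 UMIs, at a log2 ratio of 0.17 in code 4 (3 UMIs in the culture against 1 in the tail) and 0.078 in code 9 (2 against 8), where so few UMIs carry no direction. In tail code 9 against code 1, *Prrx1* (0.837, then 1.19) and *Tbx15* (0.845, then 1.23) also crossed 1 without the macrophage-marked cells. These are counted among the 52 that moved. *Tbx15* in culture code 9 had 0 UMIs when thinned and gave no value. At 4-fold in place of 2-fold, 3 of the 9 genes differed between tail codes 9 and 1, of which 1 was lower, and 3 were lower in culture code 4. With cells thinned to 3000 UMIs, 3 were lower in culture code 4. Without macrophage-marked cells, 5 were higher in tail code 9. The *Twist2* share when thinned was 12.6% in tail code 1 and 25.3% in tail code 9, and the *Osr2* share 68.0% in tail code 9, from few UMIs. At 5000 UMIs per cell, the median share of cells over the 9 genes was 34.0% in tail code 1 and 6.55% in culture code 1, and 12 pairs in tail code 1 were found together above the product. Culture code 9, at 53 cells, limits the values that rest on it. No paired analysis was possible because each condition is 1 library and the labels give no replicate numbers.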

Other observations

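Outside the mesenchymal clusters, single genes of the 9 had levels of their own. *Wnt4* stood at 57.6 CPM (43.8 to 74.2) in culture code 8, rich in *Epcam* (1563 CPM) and *Krt8* (2914 CPM) with *Krt14* at 3.9 CPM, the highest of any culture cluster, against 735 CPM in tail code 8. In tail muscle, code 5, *Wnt4* stood at 132 CPM (117 to 148). *Prrx2* stood at 63.7 CPM (39.4 to 97.3) in the endothelial-like culture code 11, from 21 UMIs, and at 3.53 CPM in the tail cluster of the same code. *Cxcl14* had 79 of its 126 culture UMIs in the pluripotency-like code 3, at 6.74 CPM (5.33 to 8.40), and 198 of its 230 D6 PM UMIs in the pluripotency-like code 2. Tail code 14 held *Twist1* at 89.4 CPM (67.7 to 116) and *Prrx1* at 73.7 CPM (54.1 to 98.0), beside summed levels of 3302 CPM for red blood cell, 2449 CPM for connective tissue and 1916 CPM for nerve and glia markers, whose part in these levels was not tested.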
